A study of Mus musculus with 4 samples.

Results

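Glycolysis and hypoxia target genes were followed as a set of 33 genes across the cell types of mouse lungs after 6 weeks of hypoxia. The genes were taken by symbol from the 31253 gene identifiers of the deposited matrices, and all 33 were found. They comprise 3 transporters of glucose and lactate, 14 enzymes of glycolysis, 3 genes that set how sugar is used, 10 targets that act on mitochondria and stress responses, and 3 genes of protein folding and collagen hydroxylation. Single-cell libraries came from WT mice and from Vegfr2Y949F mice, called mutant here, all on the C57BL/6J background, 6 to 8 weeks old and all exposed to hypoxia. Read as usual, that name stands for VEGFR2, the VEGF receptor encoded by Kdr, with phenylalanine in place of a tyrosine. Each genotype had 2 libraries, set A and set B, and each library pooled lung cells of 2 mice, so 8 mice stand behind the 4 libraries. The labels do not say in which cells the changed receptor is made, whether it is present from birth, or what the set letter marks. All groups were hypoxic, and no library of lungs kept in normal air was analysed here, so a level does not show what hypoxia did to it.

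Glycolysis splits glucose into pyruvate in the cytosol, and lactate dehydrogenase and monocarboxylate transporters turn pyruvate into lactate and carry it out of the cell. When oxygen is short, prolyl hydroxylases stop marking the hypoxia-inducible factors HIF-1alpha and HIF-2alpha for destruction, and these factors bind DNA at a short core sequence and raise transcription of many glycolytic genes and of genes that trim mitochondria, store lipid and modify collagen. Endothelial cells are known for relying on glycolysis even with oxygen at hand, and VEGF signalling is known to raise it. Neutrophils and inflammatory macrophages are also known for glycolytic metabolism.

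The 4 libraries held 11992 to 15160 barcodes with 83606389 to 96521589 UMIs (unique molecular identifiers, counts of captured RNA molecules), and 41250 cells passed the filters. Between 28 and 54 barcodes were shared by any pair of libraries. Clusters were named from marker genes, which put 36348 cells in 23 types and left 4902 unnamed. Levels are compared over the 18 types that had at least 20 cells in every library. All endothelial cells are the sum of aerocytes with general capillary, venous and arterial cells, with 4681 to 7211 cells and 37195339 to 44552491 UMIs a library. A level is given as CPM, the usual scaling of a gene's UMIs by all UMIs of that cell type in that library. The clusters were built from the same counts, so differences between types are described without a test. In summed cells, fewer cells expressing a gene and less RNA per cell cannot be told apart.

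The stretches before the start sites of some members are shown so that the core letters of the HIF binding site can be seen, or seen to be missing, next to genes on which the results below turn. Windows of 250 bases upstream of RefSeq start sites (GRCm38.p6) were found for 30 of 33 members, 1 of them under another symbol, and not for Slc2a3, Bnip3l and Ndrg1. The motif searched was ACGTG on either strand (CACGT on the other), and in CACGTG both strands match and overlap. It stood in 18 of the 30 genes (60%), against 18.5% of all 27025 genes with a window, and in 46.7% of the members' 45 windows against 16.6% of all windows. The related core GCGTG stood in 70% of the members' genes against 30.9% of all genes. The members' windows had a median GC content of 62.8% and all windows 52.4%, and many members are known as HIF targets, so the shares are no independent finding. A match is a description of letters and not a binding site. The windows printed in full held no exon of the GENCODE M21 annotation, and capitals mark ACGTG or CACGT.
P4ha1, chr10:59323046-59323295, plus strand: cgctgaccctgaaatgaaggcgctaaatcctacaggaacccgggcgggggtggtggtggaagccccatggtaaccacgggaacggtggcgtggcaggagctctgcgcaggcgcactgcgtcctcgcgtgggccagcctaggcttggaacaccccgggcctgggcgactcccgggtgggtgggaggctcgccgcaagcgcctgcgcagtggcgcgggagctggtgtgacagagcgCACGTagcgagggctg
P4ha2, chr11:54100674-54100923, plus strand: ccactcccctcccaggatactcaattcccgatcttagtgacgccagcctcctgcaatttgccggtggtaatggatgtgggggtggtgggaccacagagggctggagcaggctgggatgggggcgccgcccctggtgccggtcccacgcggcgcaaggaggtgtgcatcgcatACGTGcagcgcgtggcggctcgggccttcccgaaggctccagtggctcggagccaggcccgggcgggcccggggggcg
Ldha, chr7:46845554-46845803, plus strand: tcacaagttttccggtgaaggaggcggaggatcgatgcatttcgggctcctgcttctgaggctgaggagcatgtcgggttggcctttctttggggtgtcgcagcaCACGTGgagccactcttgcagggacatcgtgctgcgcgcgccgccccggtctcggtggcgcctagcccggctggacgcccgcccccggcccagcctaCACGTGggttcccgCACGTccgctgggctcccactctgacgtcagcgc
Pgk1, chrX:106186850-106187099, plus strand: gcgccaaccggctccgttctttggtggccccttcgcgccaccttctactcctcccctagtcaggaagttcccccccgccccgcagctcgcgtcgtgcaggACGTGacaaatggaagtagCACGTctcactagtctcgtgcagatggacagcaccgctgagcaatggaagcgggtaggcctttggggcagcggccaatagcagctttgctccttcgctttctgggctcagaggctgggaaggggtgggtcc
Hk2, chr6:82774455-82774704, minus strand: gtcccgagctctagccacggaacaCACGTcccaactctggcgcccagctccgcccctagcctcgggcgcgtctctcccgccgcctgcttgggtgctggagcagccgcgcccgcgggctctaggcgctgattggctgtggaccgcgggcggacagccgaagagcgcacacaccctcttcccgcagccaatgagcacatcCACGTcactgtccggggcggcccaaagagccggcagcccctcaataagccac
Hk1, chr10:62379909-62380158, minus strand: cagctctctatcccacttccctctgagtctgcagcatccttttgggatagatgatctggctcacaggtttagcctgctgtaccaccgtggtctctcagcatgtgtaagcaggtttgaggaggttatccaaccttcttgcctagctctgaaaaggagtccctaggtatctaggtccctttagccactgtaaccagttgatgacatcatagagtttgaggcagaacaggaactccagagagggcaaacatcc
The match of P4ha1 began 16 bases before the start site and that of P4ha2 78 bases before it. The Ldha window shown held 5 matches, 4 of them as the overlapping pairs of 2 palindromes, and Pgk1 and Hk2 held 2 each. The other window of Ldha held no ACGTG. Neither window of Hk1 held ACGTG, and 1 of the pair held GCGTG.

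Short stretches around the matches of 3 further members are shown because their levels set cell types or libraries apart.
Ankrd37, chr8:46000077-46000100, minus strand, match 241 bases before the start: cccagcagtACGTGcctagctcgg
Ankrd37, chr8:45999851-45999866, minus strand, match 6 bases before the start: gtgtttgggtACGTGa
Hilpda, chr6:29272573-29272597, plus strand, match 43 bases before the start: tggccagcggACGTGccccagggcg
Slc16a3, chr11:120949030-120949054, plus strand, match 27 bases before the start: ggcagcggtgACGTGcgcgggggac
Gene bodies lie around them, with Ankrd37 at chr8:45996902-46005707, Hilpda at chr6:29272488-29275446 and Slc16a3 at chr11:120948480-120960868 in GENCODE M21. Unlike the windows printed in full, the windows of these stretches held exonic bases of that annotation, 121 for Hilpda, 17 for Ankrd37 and 14 for Slc16a3. The other window of Hilpda held no ACGTG. Slc16a3 had a second match 14 bases before the start, which is not printed in full. The stretch shown ends inside it.

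Across cell types, the 33 genes together took the largest share of UMIs in alveolar macrophages (0.495% ± 0.0448, SD, n = 4 libraries), monocytes (0.457% ± 0.0529) and neutrophils (0.430% ± 0.0263), and the smallest in club cells (0.133% ± 0.00411). Aerocytes, the thin capillary cells of gas exchange, stood at 0.347% ± 0.0339 and general capillary cells at 0.3001% ± 0.0226. By gene, the highest mean level was in an immune type for 18 members, in an endothelial type for 7 and in a mesenchymal type or alveolar type 1 cells for 8. For 9 of the 33, every library of the top type stood above every library of the next type, and for 24 the libraries of both types overlapped. Shares over all genes were not computed for these counts, so they describe the members only. The top type was the same for all 33 members with stricter cell filters, with doublets kept, and in a clustering made without the members.

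**Figure D1:**
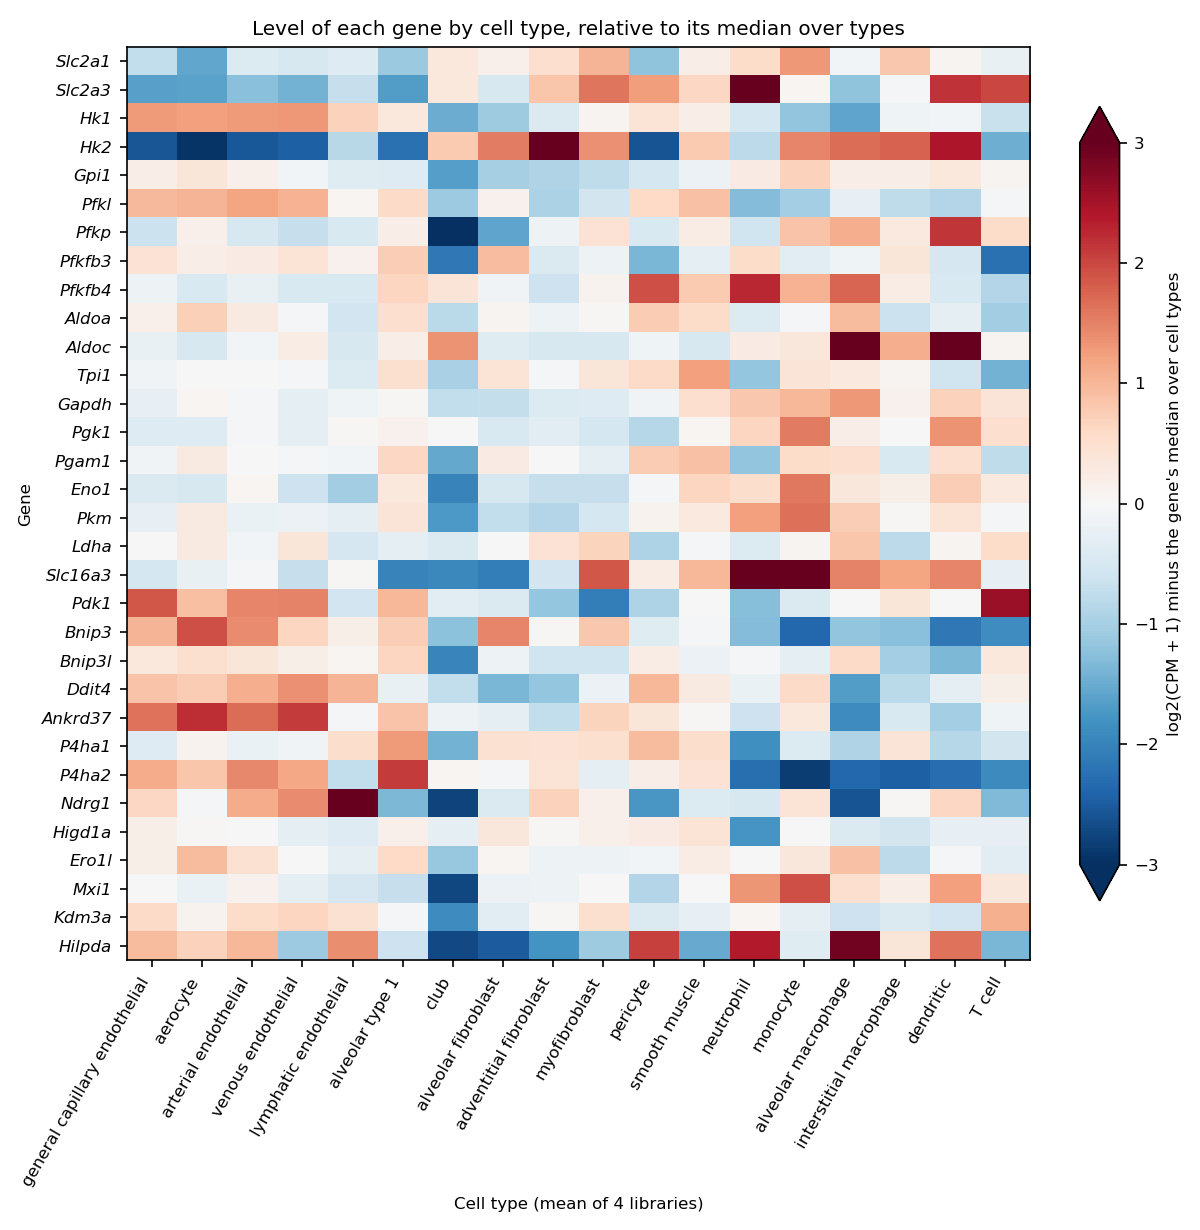
Mean level of each gene in 18 cell types, as log2(CPM + 1) minus that gene's median over the types, for members that reached 5 CPM in a type (Car9 did not). Red marks types above the gene's own median and blue types below it, so Slc2a3 and Slc16a3 stand out in neutrophils, Hk2 in adventitial fibroblasts and Ndrg1 in lymphatic endothelium.

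The transporters had their highest levels in myeloid cells. Slc2a3, the high-affinity glucose transporter GLUT3, had 243, 171, 252 and 308 CPM in neutrophils of WT A, WT B, mutant A and mutant B. The next type, dendritic cells, had 19.7 ± 10.1, and all endothelial cells 0.527 ± 0.206. No library of another type came near the neutrophil libraries. Slc16a3, the lactate exporter MCT4, had 313 and 409 CPM in WT neutrophils and 420 and 548 in mutant neutrophils, with monocytes next at 246 ± 89.0 and partly overlapping them. In all endothelial cells it stood at 4.67 ± 0.688. Slc2a1, the widespread glucose transporter GLUT1, was highest in monocytes (68.8 ± 7.71) and lowest in aerocytes (8.67 ± 2.13), with general capillary cells at 15.9.

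The hexokinases, which phosphorylate glucose on entry, were split between endothelium and stroma. Hk1 stood at 65.9 ± 10.6 CPM in venous, 65.0 ± 3.23 in general capillary, 64.7 ± 2.09 in arterial cells and 62.5 ± 5.17 in aerocytes, which do not differ beyond their spread. It was 43.0 ± 7.82 in lymphatic endothelium and 8.06 ± 1.42 in alveolar macrophages, the lowest type. Hk2 ran the other way. It had 220 and 327 CPM in adventitial fibroblasts of WT A and B and 324 and 370 in those of mutant A and B. Alveolar fibroblasts had 58.6 ± 9.58 and aerocytes 1.66 ± 0.454. Among dendritic cells, the next type, mutant A reached 226 and so overlapped the lowest adventitial library, and the other dendritic libraries lay between 60.9 and 87.1.

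**Figure D2:**
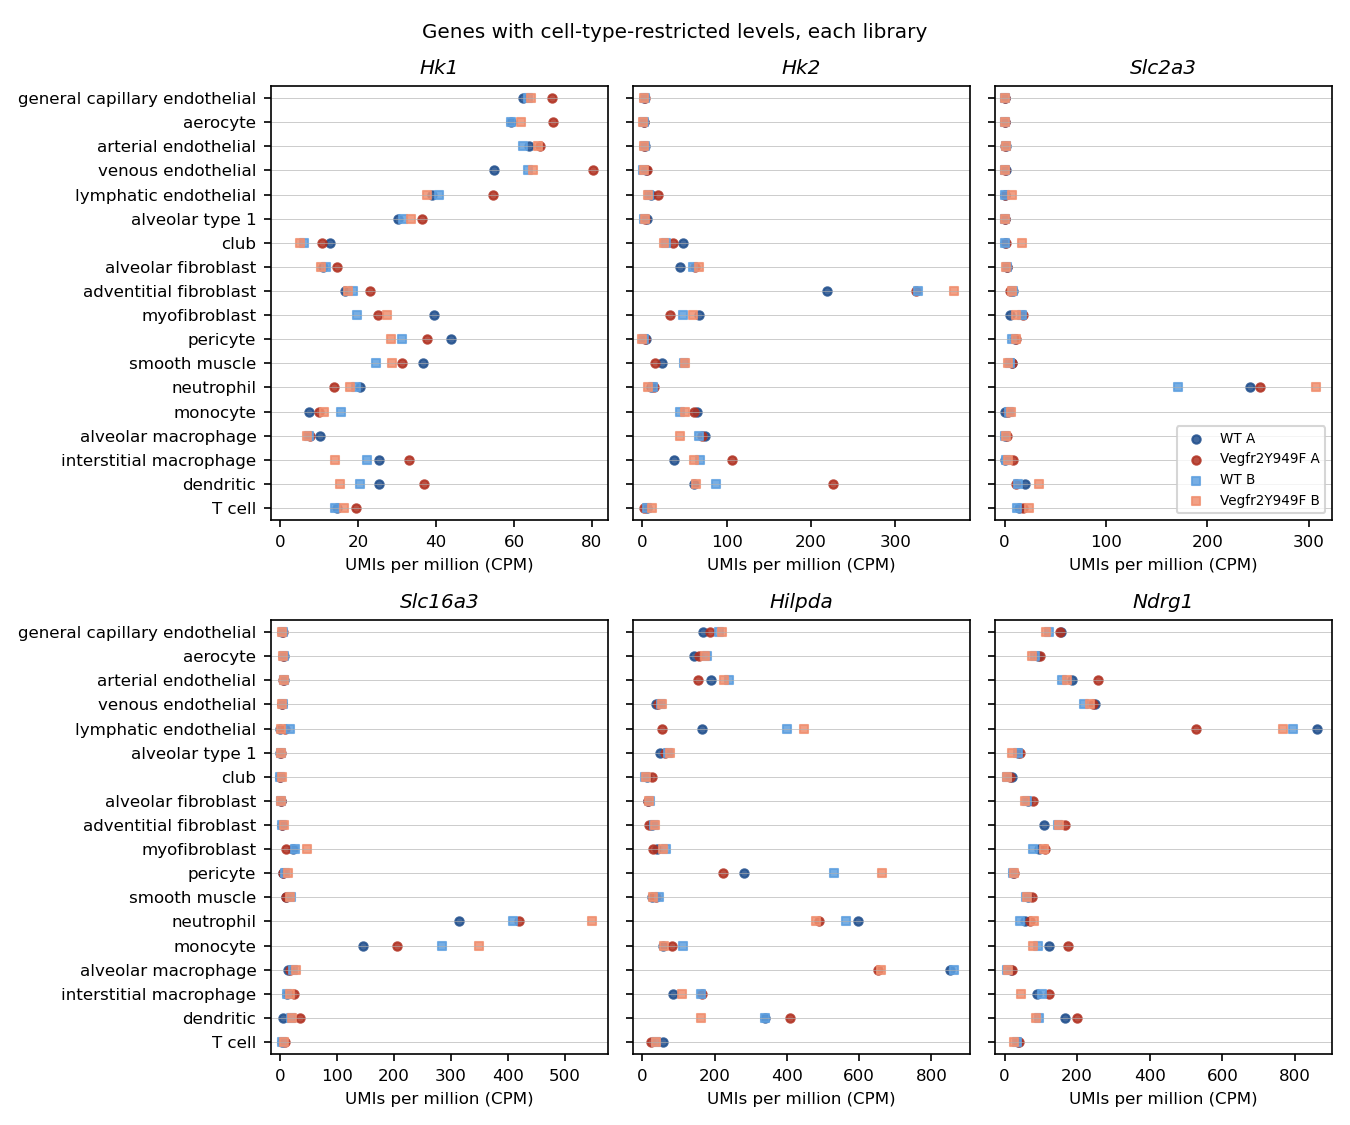
Level of 6 genes in each library (points; x axis, CPM on a linear scale that differs between panels) for 18 cell types (y axis). Hk1 has means of 62.5 to 65.9 CPM in the blood endothelial types, while Hk2 peaks in adventitial fibroblasts, Slc2a3 and Slc16a3 in neutrophils, Hilpda in alveolar macrophages and Ndrg1 in lymphatic endothelium.

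The later enzymes mostly peaked in myeloid cells. Phosphofructokinase, which commits sugar to glycolysis, had its platelet-type subunit Pfkp highest in dendritic cells (232 ± 33.1, above every library of the next type) and its liver-type subunit Pfkl in arterial cells (67.4 ± 9.39) with the other blood endothelial types between 58.6 and 61.4. Pkm, the pyruvate kinase of most tissues, had 749 ± 82.5 in monocytes and 564 ± 36.5 in neutrophils, without overlap, and 222 in all endothelial cells. Gapdh had 1329 ± 151 in alveolar macrophages and 1074 ± 194 in monocytes, which overlapped, against 485 ± 97.0 in all endothelial cells. The mean of Pgk1 was highest in monocytes (220 ± 36.2), as were those of Eno1 (171 ± 57.3) and Gpi1 (265 ± 46.8). Alveolar macrophages led for Aldoa (574 ± 78.5), Ldha (348 ± 75.9) and Aldoc (43.4 ± 9.44), an aldolase otherwise best known from brain. Aldoc was the clear case among the last 3, with 14.2 in dendritic cells and at most 2.58 in every other type compared. Smooth muscle led for Tpi1 (209 ± 37.6) and Pgam1 (140 ± 27.8), each overlapping pericytes. Gapdh, Pgk1, Pgam1, Eno1, Ldha, Tpi1, Aldoa and Pkm have near-identical copies in the mouse genome, and how reads of such copies were assigned is not given in the sources used here, so their counts are uncertain. The copy Eno1b held 582 UMIs and Eno1 16739 in the filtered cells.

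The genes that steer sugar use had separate places. Pfkfb3, the kinase known for driving glycolysis in sprouting vessels, was highest in alveolar fibroblasts (94.2 ± 7.11) and alveolar type 1 cells (82.4), with general capillary cells at 67.0 ± 9.47 and T cells lowest at 9.59. Its relative Pfkfb4 was highest in neutrophils (51.0 ± 13.3) and pericytes (40.5 ± 5.23) and stood at 8.17 in all endothelial cells. Pdk1, which holds pyruvate back from mitochondria, had 70.4 and 41.5 CPM in T cells of WT A and B and 46.2 and 30.3 in those of mutant A and B. General capillary cells came next at 27.9 ± 5.48, and the libraries of both types overlapped.

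Among the mitochondrial and stress targets, the lipid droplet gene Hilpda had the widest range. Alveolar macrophages held 851 and 864 CPM in WT A and B and 651 and 659 in mutant A and B, all above the neutrophils at 532 ± 57.5. Pericytes stood apart by set, with 281 and 224 in set A (WT, mutant) and 529 and 664 in set B. Within the endothelium, general capillary cells had 197 ± 23.8 and venous cells 46.6 ± 7.72. Ndrg1, a stress gene named for N-myc repression, had 859 and 795 CPM in lymphatic endothelium of WT A and B and 527 and 767 in that of mutant A and B. Venous endothelium followed at 237 ± 13.1, below every lymphatic library, though the lymphatic values of set A rest on 22 and 27 cells.

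The mitophagy receptor Bnip3 was highest in aerocytes (138 ± 30.5) and lowest in monocytes (6.09), and its relative Bnip3l in alveolar type 1 cells (307 ± 21.0). Ankrd37, an ankyrin repeat gene known mainly as a hypoxia target, was highest in aerocytes (45.6 ± 25.6) and venous cells (42.0 ± 29.6) with a wide spread between libraries, and 1.74 in alveolar macrophages. Ddit4, a brake on mTORC1, led in venous (84.9 ± 9.70) and arterial cells (69.8 ± 19.2). Mxi1, a MYC antagonist, led in monocytes (149 ± 7.70), above every neutrophil library. The histone demethylase Kdm3a led in T cells (74.9 ± 18.5), the respiratory chain gene Higd1a in smooth muscle (127 ± 36.7) with neutrophils lowest (27.5), and both overlapped their next types. Car9, a carbonic anhydrase often used as a hypoxia marker in tumours, had 55 UMIs in the filtered cells and at most 3.58 CPM in a type, with none in 9 of the 18 types compared. For neutrophils a count of 0 over the libraries allows up to 0.272 CPM, for counting error only.

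The collagen and folding genes were highest in epithelium and capillaries. The prolyl 4-hydroxylase subunits, which modify collagen for stable triple helices, both led in alveolar type 1 cells, with P4ha1 at 195 ± 18.5 and P4ha2 at 108 ± 16.6. For P4ha2 the next type, arterial cells (68.0 ± 10.8), lay below every alveolar type 1 library. Ero1l, which reoxidizes the enzyme that forms disulfide bonds, led in aerocytes (70.0 ± 2.68) and overlapped alveolar macrophages (65.7 ± 13.04).

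Within each library, the endothelial types shared some members and not others. The counts that follow were not made over all genes, so they describe the members and show nothing particular to them. Of 31 members with UMIs in every library, 14 were higher in aerocytes than in general capillary cells in 4 of 4 libraries and 11 lower. The largest such differences on the log2 scale were 0.91 ± 0.12 (SD, n = 4) for Bnip3, 0.81 ± 0.10 for Pfkp, 0.79 ± 0.12 for Ero1l, 0.56 ± 0.09 for Aldoa, 0.56 ± 0.20 for Ankrd37 and 0.54 ± 0.12 for P4ha1. In the other direction stood Pdk1 (-1.005 ± 0.07), Slc2a1 (-0.87 ± 0.11) and Ndrg1 (-0.65 ± 0.09). Venous cells differed from general capillary cells most in Hilpda (-2.09 ± 0.07), against Ndrg1 at 0.80 ± 0.17 and Ddit4 at 0.53 ± 0.15. Arterial cells had 11 of 31 members above general capillary cells in every library and 3 below, with Pdk1 lowest (-0.44 ± 0.14). Those above included Eno1 (0.46 ± 0.20), Ndrg1 (0.48 ± 0.23) and Pgk1 (0.34 ± 0.12). Lymphatic cells had 3 of 28 members above general capillary cells in every library and 11 below. Ndrg1 stood at 2.42 ± 0.43 and Hk2 at 1.99 ± 0.49, and in the other direction P4ha2 at -2.46 ± 1.68 and Ankrd37 at -1.65 ± 0.97. Lymphatic means of Hk2, P4ha2 and Ankrd37 were only 10.4, 14.2 and 8.83 CPM. The lymphatic sums of set A held 102429 and 109978 UMIs (WT, mutant), so these 3 ratios rest on few UMIs.

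The study compared genotypes, and that comparison was made on UMIs summed per library. In all endothelial cells, no member passed the test: 0 of 31 tested members were called by edgeR's quasi-likelihood test at a Benjamini-Hochberg adjusted p under 0.05, where 0% of the 13959 genes tested were called. At an unadjusted p under 0.05 stood 1 member against 1.1% of all genes, and DESeq2 called 0 members. Aldoc and Car9 were too low to test. Most members nevertheless had lower values in mutant cells, 24 of 31 against 51.4% of all genes, with a median log2 fold change of -0.19 (all genes -0.01), with set A alone giving -0.18 and set B alone -0.14. Both mutant libraries lay below both WT libraries for 6 members (11.1% of all genes) and above them for 1 (11.2%). The median moved to -0.09 without WT B, to -0.11 without mutant A and to -0.13 without a capillary cluster described below. With 2 libraries a genotype an exact permutation test cannot give a p under 0.333, and the edgeR p-values measure only the spread between pools.

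By role, 11 of the 13 glycolytic enzymes tested had lower values in mutant endothelium (median -0.21), as did 3 of 3 folding and collagen genes (median -0.51), 7 of 9 mitochondrial and stress targets (median -0.06), 2 of 3 transporters (median -0.19) and 1 of 3 genes of sugar use (median 0.03). Values of the libraries below are CPM after scaling by TMM factors, which correct for differences in RNA composition.

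P4ha2 stood at 67.2 in WT A and 56.8 in WT B and at 38.1 in mutant A and 49.0 in mutant B. Both mutant libraries were below both WT libraries, mutant A furthest. The log2 fold change was -0.51 (SE 0.18, unadjusted p = 0.0251, adjusted p = 1.00 by edgeR), -0.82 within set A and -0.21 within set B. Its partner P4ha1 stood at 117 in WT A, 49.1 in WT B, 58.1 in mutant A and 49.6 in mutant B. Only WT A was high, and the groups overlapped. The log2 fold change of -0.62 (SE 0.37) turned to 0.14 without WT A and was -1.12 without WT B. Either fit leaves 1 WT library, so no spread between WT pools enters it.

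Ankrd37 stood at 23.8 in WT A, 62.3 in WT B, 16.8 in mutant A and 38.8 in mutant B. Set B was high in both genotypes, so the groups overlapped, with the mutant lower within each set. The log2 fold change was -0.63 (SE 0.53), turned to 0.22 without WT B, and was -1.17 without WT A, each with 1 WT library left. Between the WT libraries, P4ha1 and Ankrd37 thus differed in opposite ways, by -1.25 and 1.39 (log2 of WT B over WT A). Between the mutant libraries, B over A was -0.23 for P4ha1 and 1.21 for Ankrd37.

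Among the enzymes, Tpi1, which interconverts the triose phosphates, stood at 95.9 and 91.0 in WT A and B and at 68.1 and 80.1 in mutant A and B (log2 fold change -0.33, SE 0.15). Pfkl stood at 67.6 and 65.7 against 47.7 and 58.3 (-0.33, SE 0.15). Pkm stood at 248 and 244 against 177 and 223 (-0.30, SE 0.17). In these 3 genes the groups did not overlap, and mutant A was the lowest library.

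Gapdh stood at 496 and 592 in WT A and B and at 326 and 539 in mutant A and B (-0.33, SE 0.27). Aldoa stood at 376 and 439 against 272 and 380 (-0.32, SE 0.22). In both genes mutant B lay between the WT libraries, and mutant A alone was below them. Hk1 was the single member with both mutant libraries above both WT libraries, at 65.7 and 65.5 against 61.5 and 64.8 (0.05, SE 0.13). Hilpda was nearly level, at 155 and 197 in WT A and B and 157 and 198 in mutant A and B (0.01, SE 0.20).

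**Figure D3:**
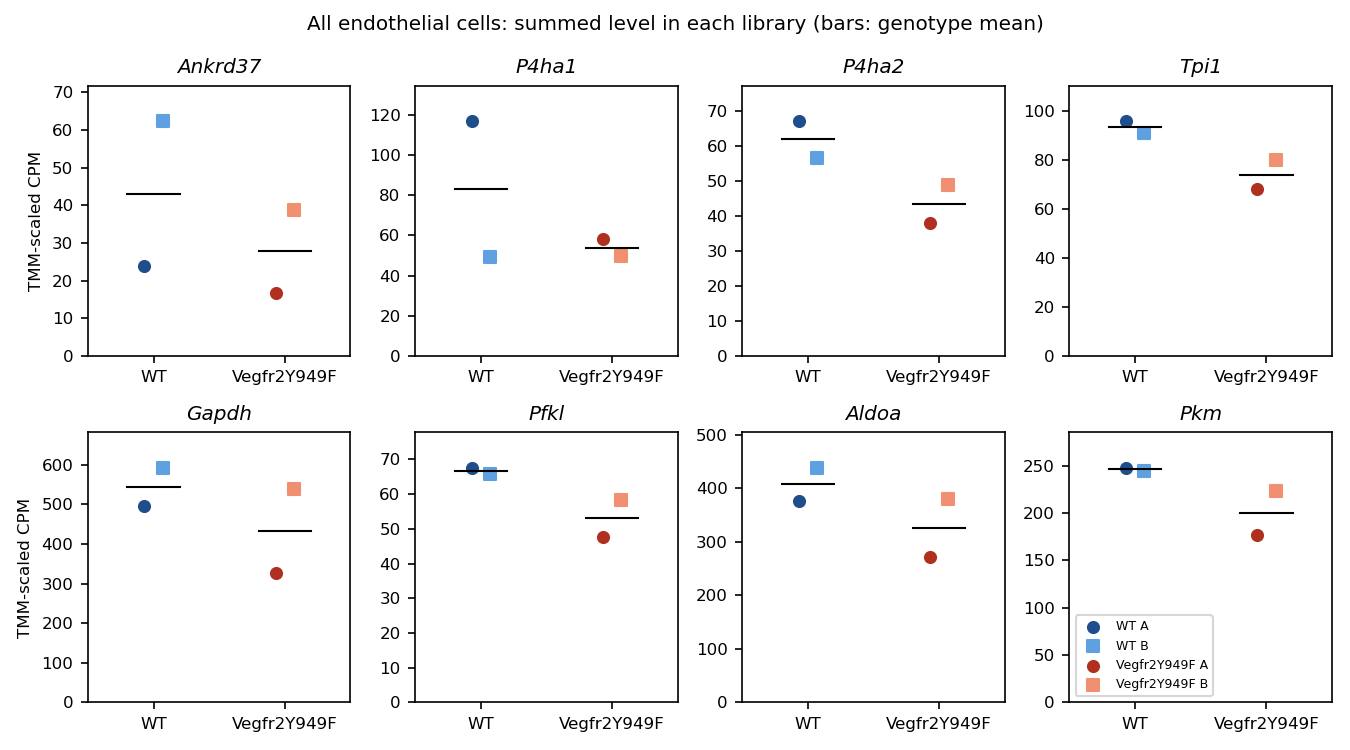
Level of 8 members in all endothelial cells of each library (points; y axis, TMM-scaled CPM from 0; bars, mean of 2 libraries), chosen as those with the largest log2 fold change among members with at least 20 CPM. WT A alone is high for P4ha1 (117), set B is high for Ankrd37 in both genotypes, and mutant A is the lowest library for the other 6.

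The sets differed as well as the genotypes. Over the 31 tested members, the median size of the set B over set A difference within a genotype was 0.30 on the log2 scale. The median size of the genotype difference was 0.19. The first sets single libraries against each other and the second is an estimate over 4 libraries, so the sizes cannot be ranked. In both genotypes 14 members were higher in set B and 8 lower. Of the members, 21 were lower in the mutant in set A, 25 in set B and 17 in both. Shares over all genes were not computed for these counts by set. What the set letter marks is not stated, and sets and genotypes are crossed.

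The general capillary cells, known to give rise to aerocytes after injury and the most numerous endothelial type here, gave 0 of 31 members called by edgeR (0% of 13118 genes), 1 at an unadjusted p under 0.05 (1.71% of genes) and 0 by DESeq2. There, 24 of 31 were lower (51.4% of all genes), with a median of -0.20 (set A -0.21, set B -0.12). Mutant libraries lay below both WT libraries for 7 members (11.8% of genes) and above for 0 (11.9%). The median was -0.09 without mutant A and -0.13 without WT B. P4ha2 had 68.3 and 59.99 in WT A and B against 37.7 and 50.6 in mutant A and B (-0.54, SE 0.18). Ddit4 had 60.3 and 69.5 against 52.3 and 53.7 (-0.29, SE 0.14), also without overlap. P4ha1 (-0.68, SE 0.38), Ankrd37 (-0.56, SE 0.53), Gapdh (-0.33, SE 0.29), Tpi1 (-0.33, SE 0.14), Aldoa (-0.32, SE 0.23) and Pkm (-0.30, SE 0.18) completed the 8 largest. P4ha1 turned to 0.07 without WT A, Ankrd37 to 0.28 without WT B and Gapdh to 0.0019 without mutant A.

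In aerocytes, 0 of 30 members were called by edgeR (0% of 11594 genes), 2 stood at an unadjusted p under 0.05 (1.33% of genes) and DESeq2 called 0. There, 25 of 30 were lower (50.3% of all genes) with a median of -0.22 (set A -0.25, set B -0.14), and -0.12 without WT B and -0.14 without mutant A. Both mutant libraries lay below both WT libraries for 10 members (11.3% of genes), 7 of them glycolytic enzymes, and above for 1 (12.9%), Hk1. Pfkl had 72.9 and 67.2 in WT A and B and 47.5 and 53.7 in mutant A and B (-0.47, SE 0.15, edgeR unadjusted p = 0.0126, adjusted p = 1.00). P4ha2 had 59.9 and 45.4 against 34.3 and 38.1 (-0.54, SE 0.18, edgeR unadjusted p = 0.0143). Both genes had mutant libraries below WT libraries in each set.

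Bnip3, highest in this cell type, had 181 and 130 in WT A and B and 129 and 109 in mutant A and B (-0.38, SE 0.20). Gapdh (-0.38, SE 0.22), Pkm (-0.38, SE 0.18) and Aldoa (-0.36, SE 0.20) also had both mutant libraries below both WT libraries. P4ha1 (-0.59, SE 0.30) turned to 0.08 without WT A. Ankrd37 (-0.66, SE 0.49) turned to 0.11 without WT B and was -1.16 without WT A, each with 1 WT library left.

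**Figure D4:**
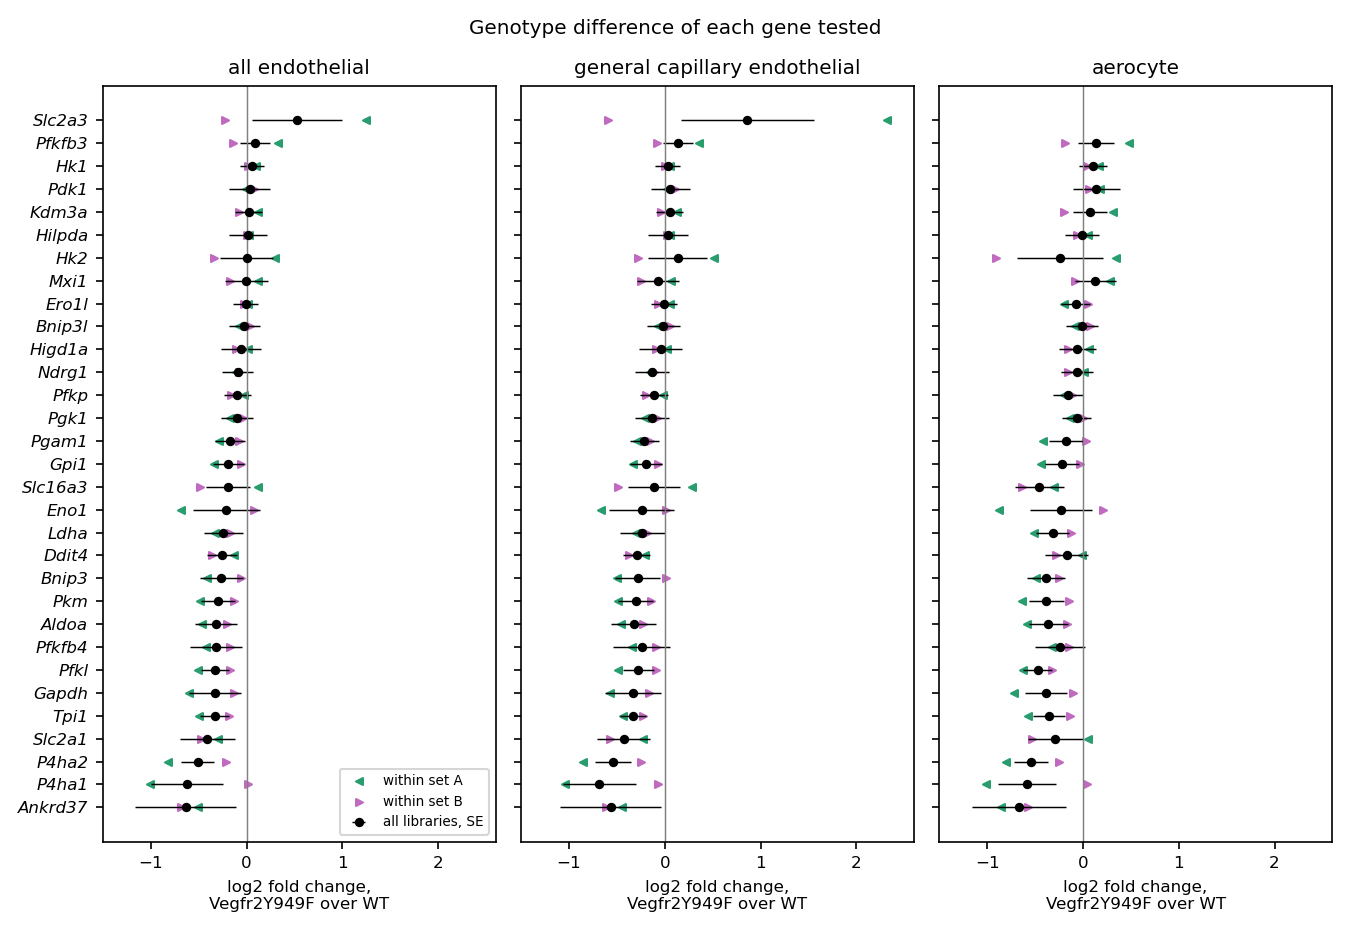
Log2 fold change of mutant over WT (x axis) for each member tested in 3 endothelial sums, in one gene order (y axis); black points with bars are the estimate ± SE over 4 libraries and triangles the values within set A and set B. Most points lie left of 0, with set A values further left than set B values for most glycolytic enzymes, and the far right triangle is Slc2a3 in general capillary cells within set A (2.32), a gene under 1 CPM there.

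In the 18 cell types, the 493 tests of a member in a type gave 0 calls by edgeR and 0 by DESeq2. At an unadjusted p under 0.05 stood 14 (2.84%), 12 lower and 2 higher, against 1.95% of the 151475 tests of all genes. Outside the capillary types given above, these were 1 of 29 members in neutrophils (2.22% of all genes there), 1 of 30 in alveolar fibroblasts (1.76%), 2 of 30 in venous cells (1.51%) and 3 of 29 in alveolar type 1 cells (1.28%). They were 2 of 28 in pericytes (2.29%), 1 of 25 in alveolar macrophages (2.4%) and 1 of 26 in smooth muscle (2.43%). In neutrophils 18 of 29 members had lower values in the mutant (51.2% of genes), as had 21 of 30 in alveolar fibroblasts (50.8%) and 23 of 29 in alveolar type 1 cells (49.5%). Over all genes, edgeR called 0.0175% in alveolar fibroblasts, 0.0211% in arterial cells and 0.0295% in club cells, all higher in the mutant, and 0% in the other 15 types. The members' median was below 0 in 16 of 18 types, from -0.22 in aerocytes to 0.13 in T cells. The types share libraries, so they are not independent of each other.

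**Figure D5:**
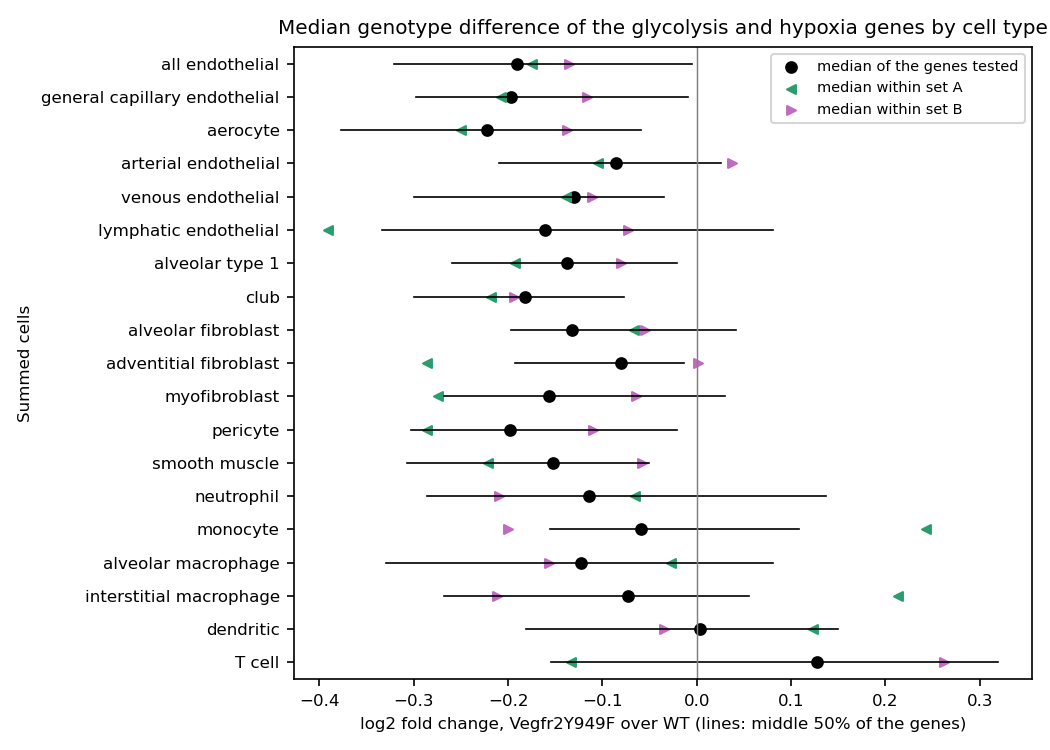
Median log2 fold change of the members tested (x axis; black point, with a line over the middle 50% of the members) in 19 sums of cells (y axis), with the medians within set A and set B as triangles. The medians lie below 0 in 16 of the 18 single types, between -0.22 and 0.13, and in several types sets A and B lie on opposite sides of 0.

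The 14 were spread over roles and cell types, and are named here because of their values. Hilpda in alveolar macrophages had 876 and 870 in WT A and B and 648 and 640 in mutant A and B (log2 fold change -0.44, SE 0.15, edgeR unadjusted p = 0.0208, adjusted p = 1.00), with near-equal values within each genotype, from 46, 185, 105 and 92 cells. Slc2a1 in smooth muscle had 40.1 and 43.8 against 20.6 and 22.3 (-0.97, SE 0.42). P4ha2 in pericytes had 35.6 and 39.8 against 19.8 and 17.5 (-1.002, SE 0.34). The groups did not overlap in these 3, and none was called. The smooth muscle sums held 278931 to 531041 UMIs from 44 to 69 cells a library, and the pericyte sums 806889 to 1005166 UMIs. Values of Slc2a1 and P4ha2 there thus rest on few UMIs. Over all genes, both mutant libraries lay below both WT libraries for 14.9% in alveolar macrophages, 14.2% in smooth muscle and 14.3% in pericytes.

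The 2 positive differences also came without overlap, where both mutant libraries lay above both WT libraries for 14.4% of all genes in pericytes and 13.3% in alveolar fibroblasts. Pericytes had Pfkfb3 at 13.8 and 11.1 in WT A and B and 23.1 and 25.1 in mutant A and B (0.94, SE 0.42). Pdk1 in alveolar fibroblasts had 4.16 and 2.09 against 8.41 and 4.53 (0.99, SE 0.45). Alveolar type 1 cells had Slc2a1 at -0.80 (SE 0.32), Ddit4 at -0.58 (SE 0.22) and Ankrd37 at -0.87 (SE 0.38). Further values for Ankrd37 came from venous cells (-1.20, SE 0.42), at 29.9 and 89.5 against 21.2 and 30.4, and in neutrophils (-1.29, SE 0.52), at 6.58 and 10.2 against 3.91 and 1.83. The neutrophil sum of mutant B held 1069122 UMIs, so its value of 1.83 rests on very few UMIs. Pfkfb4 in venous cells (-1.15, SE 0.42) and, given above, P4ha2 and Pfkl in capillary cells complete the list. In venous cells, edgeR called Ankrd37 with the set letter as a block (0.549% of all genes called) and with no low-count filter (0.0909%).

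Whether a genotype difference itself differed between cell types was tested with an interaction term. Between aerocytes and general capillary cells, 0 of 31 members were called (0.131% of all genes), and 0 had an unadjusted p under 0.05 (3.91% of genes). Neutrophils were set against all endothelial cells, with 0 of 32 called (0.0141% of genes) and 0 at an unadjusted p under 0.05 (1.96%). The same held for alveolar type 1 cells, with 0 of 32 called (0% of genes) and 0 at an unadjusted p under 0.05 (2.32%). In alveolar fibroblasts 0 of 31 were called (0% of genes), with 3 at an unadjusted p under 0.05 (3.74% of genes), namely Pdk1 (difference 0.95, SE 0.31), P4ha2 (0.53, SE 0.17) and Bnip3 (0.37, SE 0.17). The calls were made with edgeR at an adjusted p under 0.05. DESeq2 was not run for this term.

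Some other gene lists moved with the members. In all endothelial cells, 11 of 11 heat shock genes had lower values in mutant libraries (median -0.47; 0 called by edgeR, 3 at an unadjusted p under 0.05), with summed levels of 20847 and 21310 scaled CPM in WT A and B and 12461 and 17662 in mutant A and B. Mutant A was lowest there too. The 10 genes of the unfolded protein response tested were all lower (median -0.17), with sums of 2608 and 3066 in WT and 2123 and 2753 in mutant libraries. Immediate early genes, which dissociation is known to induce, summed to 16675 and 15210 in set A (WT, mutant) and 24149 and 21937 in set B, the same order of libraries as Ankrd37. Erythroid markers summed to 496 and 857 in WT and 1044 and 1078 in mutant libraries (6 of 6 tested higher), and neutrophil markers to 30.6 and 39.6 in WT and 101 and 27.9 in mutant libraries. Pan-endothelial markers summed to 8446 and 8114 against 7280 and 7706. The part of any of these in the members' values was not tested.

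A cluster of general capillary cells led by Plvap, a gene of the diaphragms of fenestrae and caveolae, was unequal between genotypes. It held 1.12% and 1.44% of the general capillary cells of WT A and B and 14.0% and 21.7% of those of mutant A and B. Within the mutant libraries, Hilpda had 327 and 385 CPM in that cluster (sets A and B) and 161 and 163 in the other general capillary cells. Of 31 members, 25 were lower in the cluster in both mutant libraries and 3 higher, the others mixed. The share of all genes lower in the cluster was not computed, so the count does not show a trait of the members. In mutant A and B, Gapdh had 231 and 368 in the cluster against 342 and 545 outside. Bnip3 had 33.8 and 16.2 against 82.2 and 76.2, and Ndrg1 79.7 and 47.0 against 165 and 139. The cluster held only 61 and 50 cells of WT A and B. There Bnip3 was higher in it, at 105.5 and 76.3 against 98.4 and 59.4. Gapdh (435 and 477 against 451 and 556) and Ndrg1 (121.5 and 91.5 against 157 and 124) were lower in it. Without the cluster, a choice made after seeing the data, the members' median in general capillary cells went from -0.20 to -0.10. The cluster was formed from these counts, so its levels are a description.

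Other genes of the pathway, which are not members, had medians near 0 in all endothelial cells. Of 16 tested further genes of glycolysis and sugar metabolism, 6 were lower and 10 higher (median 0.06). Of 39 tested further HIF targets, 24 were lower and 15 higher (median -0.06). The largest difference among them was that of Cxcr4, a chemokine receptor, at 2.61 and 3.25 in WT A and B against 5.43 and 9.30 in mutant A and B (1.33, SE 0.31). Of the 9 HIF subunits and oxygen sensors tested, 5 were lower and 4 higher (median -0.04), with Hif1a at 53.9 and 67.5 in WT A and B and 63.6 and 68.2 in mutant A and B. Epas1, which encodes HIF-2alpha and is named for that role after its values were seen, had 3259 and 2657 against 3665 and 2728. The pentose phosphate pathway (4 of 7 lower, median -0.06) and the genes of pyruvate use and the citrate cycle (12 of 20 lower, median -0.04) also had medians near 0. No gene of these lists was called by edgeR, and 1, Cxcr4, stood at an unadjusted p under 0.05.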

How the data were processed

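Single-cell RNA was measured in 4 lung libraries. The deposited matrices hold whole-number UMI counts per gene and barcode, which Cell Ranger 6.1.1 wrote per the file headers, with the mm10 build and fastp, UMI-tools and Seurat 4.1.0 named in the submitters' processing notes; the authors did not normalize them. For aligner settings and annotation, the sources used here name nothing, and the authors' cell names were not used. Of 31253 identifiers, 31107 were in GENCODE M21, with all 33 members under the same symbol. Aldoa had a second identifier with 4 UMIs, left out.

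Cells had at least 500 genes and 1000 UMIs and under 15% mitochondrial UMIs. The automatic doublet threshold of Scrublet marked 0 to 387 cells a library, so the highest 8% of scores were removed. The 2000 most variable genes (4 members among them) gave 40 components, 15 neighbours and Leiden clusters at resolution 1 (scanpy 1.11.5). A cluster was named where at least 3 markers of a type were detected in 20% of its cells and its score led by 0.3, with T cell, monocyte and dendritic subtypes merged.

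Genotypes were compared with edgeR 4.0.16 (quasi-likelihood, TMM, filterByExpr, Benjamini-Hochberg over all genes, calls at 0.05), tested on simulated data. DESeq2 1.42.0, other size factors, no filter, stricter cells, left-out libraries and a set block were alternatives. The genes named are the 8 members with the largest absolute log2 fold change among those with 20 CPM or more in each endothelial sum, and for levels the top type of each member. The members and lists were chosen with earlier results of these data known.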

Additional observations from a re-analysis of the deposited data

How the results depend on the processing

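With the labels' set letter as a replicate block, 0 members were called in all endothelial cells, general capillary cells and aerocytes, with medians of -0.18, -0.20 and -0.22, and 1 (Ankrd37) in venous cells; over all genes the block called 16, 37 and 0 in the first 3, where the fit without it called 0. The residuals of same-lettered libraries correlated at 0.430, 0.444 and 0.339, but the labels do not say that the letter marks a shared day or batch, and 2 pairs cannot settle it.

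Leaving out single libraries left 1 library in a genotype, so no spread within that genotype entered the fit. Some members were called in such fits, and only the sizes of differences are given here. The medians ranged from -0.25 to -0.093 in all endothelial cells, from -0.25 to -0.091 in general capillary cells and from -0.32 to -0.12 in aerocytes. In the same order, P4ha1 ranged from -1.12 to 0.14, from -1.17 to 0.072 and from -1.04 to 0.079, above 0 without WT A. Ankrd37 ranged from -1.36 to 0.22, from -1.29 to 0.28 and from -1.63 to 0.11, above 0 without WT B. Gapdh in general capillary cells ranged from -0.77 to 0.0019, above 0 without mutant A. Without the Plvap-led cluster the medians in all endothelial and general capillary cells were -0.13 and -0.10, and without the Depp1-led cluster -0.21 and -0.24. With no low-count filter 1 member was called in venous cells (Ankrd37, with 0.0909% of all genes called) and 1 in club cells (Slc2a3, with 1.13%). The cause was not tested. DESeq2 gave no member called in any of the 19 sums. Its size factors in edgeR, stricter cells, doublets kept and clustering without the members, run in the 3 endothelial sums, gave none either, nor did leaving out the Plvap-led or Depp1-led cluster. Over all genes, where edgeR called 0 in the 3 sums, DESeq2 called 7, 13 and 1, and edgeR without the filter 39, 62 and 28.

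Depth was lowest in the WT A sums of lymphatic cells (102429 UMIs), monocytes (137673), myofibroblasts (177693) and dendritic cells (196895) and in mutant A lymphatic cells (109978).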
